A study of Rattus norvegicus with 10 samples.

Results

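Complement genes were examined in the transitional epithelium of the rat nasal cavity, the zone between squamous and respiratory lining, after 5 days of oral N,N-dimethyl-p-toluidine (DMPT). The genes are C1qa, C1qb, C1qc, C1s, C3, Cfb, Cfi, Cd55 and Cd59, and a gene entered when a probe set, the group of short probes that reads 1 transcript, carried its symbol alone in the platform annotation. By that rule 7 of the 9 listed genes were found, with 8 probe sets. An eighth gene, Cd59, was found through its RefSeq synonym as Cd59b, which gave 8 genes and 9 probe sets out of 14217 genes and 31042 probe sets in all. Cfb had no probe set of its own: 4 probe sets carried both Cfb and C2, the gene beside it in RefSeq, and were not assigned to either. The treated group was 5 male F344/N rats given 120 mg/kg of DMPT per day in corn oil by gavage, and the control group was 5 such rats given the vehicle. All were 5 to 6 weeks old at the start. The epithelium was cut out by laser capture microdissection, its RNA was amplified, and each rat gave 1 array. DMPT is an aromatic amine that speeds the setting of acrylic resins. Lesions, complement protein and complement activation were not measured by these arrays.

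Complement is a cascade of plasma and tissue proteins that marks particles and damaged cells for removal. In the classical pathway C1q, built from A, B and C chains, recognises its target and the proteases C1r and C1s cut C4 and C2, while in the alternative pathway factor B, the product of Cfb, takes the place of C2. Both lead to cleavage of C3, whose fragments coat the target. Factor I (Cfi) inactivates C3b and C4b, CD55 takes apart the enzymes that cleave C3, and CD59 blocks assembly of the membrane attack complex. C1q comes largely from macrophages and dendritic cells; C3 and factor B are made by liver and also by mucosal epithelia, and CD55 and CD59 sit on the surface of most cells.

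All values are log2 RMA expression values, and a difference is the DMPT mean minus the vehicle mean with its standard error (n = 5 rats per group). A gene was called when limma's two-sided p, adjusted by Benjamini-Hochberg over all probe sets, was under 0.05; each gene was read by its probe set with the highest mean, and values of different probe sets are not compared as levels. The medians of the arrays lay between 8.21 and 8.35. Vehicle replicate 2 stood apart, with a mean correlation of 0.975 with its group against 0.985 to 0.991 for the other 9 arrays, so results that rest on it are given with and without it. The 3' minus 5' difference of control transcripts, which reflects RNA quality, averaged 1.10 with DMPT and 1.28 with vehicle. Epithelial markers, mostly keratin and junction genes, were present, and 0 of 12 measured were dimmer than the median probe set. Of 8 ciliated cell markers 0 were dimmer, and of 10 stromal markers 4 were. These levels therefore do not show that 1 cell type was captured. Of the 12 epithelial markers, Krt5, Krt7 and Krt8 were called higher by 0.60 ± 0.11, 0.58 ± 0.14 and 0.44 ± 0.088. None was called lower (0 at an unadjusted p under 0.05 by limma). Krt7 lost its call in 4 of the 10 single-array omissions. The arrays read captured tissue in bulk, in which a change in the number of cells of a type and a change in RNA per cell cannot be told apart.

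All 3 C1q chains were higher after DMPT, and the other 5 genes were not called. Called higher were 3 of 8 genes and called lower 0 of 8; over all 14217 genes, 13.9% were called, 7.13% higher and 6.77% lower, and over all 31042 probe sets 11.1% were, 5.37% higher and 5.74% lower. Of the 8 genes, 1 lay lower at an unadjusted p under 0.05 by limma, and that gene was Cd55.

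C1qc, the C chain, read 10.51, 10.75, 10.67, 10.35 and 10.77 in vehicle replicates 1 to 5 and 11.13, 11.06, 11.36, 11.25 and 11.31 in DMPT replicates 1 to 5. Every treated rat lay above every control rat. The difference was 0.61 ± 0.11, or 1.53-fold (limma adjusted p = 0.00392).

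C1qb, the B chain, read 8.53, 8.03, 8.50, 8.52 and 8.47 with vehicle and 8.86, 8.86, 9.51, 9.02 and 9.42 after DMPT. The groups did not overlap here either, and the lowest control value was that of vehicle replicate 2. The difference was 0.72 ± 0.16, or 1.65-fold (limma adjusted p = 0.0128), and 0.63 without vehicle replicate 2 (adjusted p = 0.0184). With this RNA quality measure as a covariate it was 0.62 and was not called (adjusted p = 0.068).

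C1qa, the A chain, read 9.23, 9.76, 9.06, 9.58 and 9.43 with vehicle and 9.48, 10.06, 10.33, 10.21 and 9.94 after DMPT. DMPT replicate 1 lay inside the control range and the other 4 treated rats above it. The difference was 0.59 ± 0.17 (limma adjusted p = 0.0495). Its call was lost in 8 of the 10 single-array omissions, with differences between 0.50 and 0.72 over all 10; it held without vehicle replicate 2 (0.68, adjusted p = 0.0269) and without DMPT replicate 1. The calls of C1qb and C1qc held in all 10 omissions. The 95% intervals of the 3 differences overlapped, from 0.21 to 0.97 for C1qa, 0.38 to 1.07 for C1qb and 0.38 to 0.84 for C1qc.

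**Figure D1:**
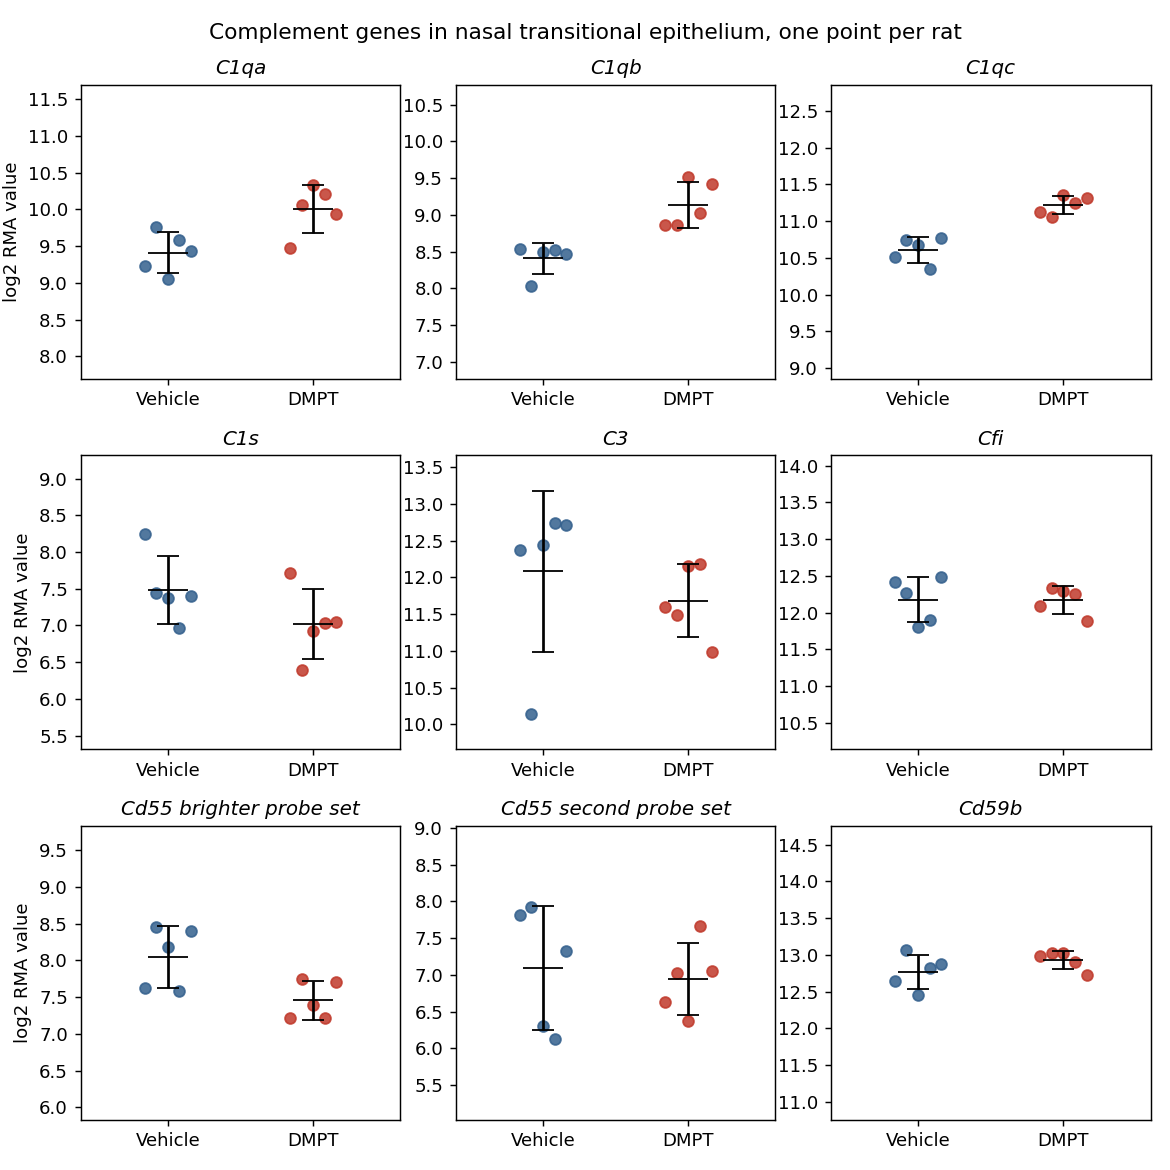
Log2 RMA values of the 9 complement probe sets (vertical axis, the same span in each panel), with 1 point per rat, blue for vehicle and red for DMPT; black bars show the group mean and SD (n = 5 each). The groups separate for C1qb and C1qc, and the low control point of C3, at 10.14, is vehicle replicate 2.

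In RefSeq the C1q genes are direct neighbours on chromosome 5, in the order C1qb, C1qc, C1qa. Sequence before the transcription start was held for 5 of the 8 measured genes, and the 250 bases before the start are shown for the C1q genes among them because these genes rose together. C3 is shown beside them as a gene on another chromosome that was not called. They are RefSeq sequences of build GRCr8, minus strand, at chr5:154419934-154420183 for C1qa, chr5:154407828-154408077 for C1qb and chr9:2201340-2201589 for C3. Capitals mark GGAAGT on either strand, a core bound by ETS factors such as PU.1 of myeloid cells, in the C1q genes, and TTGCNNAA, a C/EBP-type motif, in C3.
C1qa: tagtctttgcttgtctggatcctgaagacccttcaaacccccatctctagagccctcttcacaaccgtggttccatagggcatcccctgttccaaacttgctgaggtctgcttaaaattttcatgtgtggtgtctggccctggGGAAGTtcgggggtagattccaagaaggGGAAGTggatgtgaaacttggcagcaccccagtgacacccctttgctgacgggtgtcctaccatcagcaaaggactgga
C1qb: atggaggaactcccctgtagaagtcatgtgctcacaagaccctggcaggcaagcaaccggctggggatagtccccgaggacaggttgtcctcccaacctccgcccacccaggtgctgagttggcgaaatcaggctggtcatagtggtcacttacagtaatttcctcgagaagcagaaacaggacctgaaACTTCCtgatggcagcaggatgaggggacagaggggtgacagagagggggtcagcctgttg
C3: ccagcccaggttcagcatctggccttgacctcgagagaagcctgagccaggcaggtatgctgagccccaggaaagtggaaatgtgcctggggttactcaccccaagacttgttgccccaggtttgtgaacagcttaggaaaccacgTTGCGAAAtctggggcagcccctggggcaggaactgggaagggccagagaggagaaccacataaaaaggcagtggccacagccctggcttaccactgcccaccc
GGAAGT occurred 2 times in the C1qa window, starting 107 and 79 bases before the start, and 1 time in the C1qb window on the opposite strand, 61 bases before it. It occurred 0 times in the windows of C3, Cfi and Cd55. Of 33469 promoters with the same window, 19.2% held it. TTGCNNAA occurred 1 time in C3, 104 bases before the start, and in 9.22% of all promoters. The interferon-stimulated motif GAAANNGAA (8.12% of promoters) and the NF-kappaB motif GGANTTTCC (1.08%) occurred 0 times in the 5 windows. These matches are letters in a window, the motifs were chosen after the sequences were seen, and binding was not measured.

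Some macrophage markers were higher in the same arrays. Of 18 measured markers, 5 were called higher, 0 lower and 13 not called (7 and 0 at an unadjusted p under 0.05 by limma), and 16 had differences above 0, with a median of 0.29 against -0.0052 over all genes. The lysosomal glycoprotein gene Cd68 rose by 0.87 ± 0.16, the lysosomal protease gene Lgmn by 0.69 ± 0.12 and the lipopolysaccharide co-receptor gene Cd14 by 0.43 ± 0.076 (limma adjusted p = 0.00471, 0.0047 and 0.00435). The mannose receptor gene Mrc1 rose by 1.37 ± 0.38 and the inhibitory Fc receptor gene Fcgr2b by 0.60 ± 0.16. Mrc1 and Fcgr2b lost the call in 7 and 6 of the 10 omissions, and the count was 3 without DMPT replicates 2 or 3 or vehicle replicates 1 or 2, and also with the RNA quality covariate. Among the most used lineage markers, the growth factor receptor gene Csf1r differed by 0.16 ± 0.12, Aif1 by 0.062 ± 0.15, Adgre1 by -0.050 ± 0.14 and the scavenger receptor gene Cd163 by 0.26 ± 0.16, and none of these 4 was called.

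Per rat, the mean difference of the macrophage markers from the vehicle mean was 0.12 to 0.45 in treated rats and -0.090 to 0.079 in control rats. The mean of the C1q chains on the same scale ran from 0.35 in DMPT replicate 1 to 0.92 in DMPT replicate 3, and from -0.066 to 0.079 with vehicle. DMPT replicate 1 had the lowest treated value of both, but the order of the other treated rats differed. DMPT replicates 2, 3, 4 and 5 read 0.43, 0.42, 0.45 and 0.26 for the markers. For the C1q chains they read 0.51, 0.92, 0.68 and 0.75. The part of the macrophage markers in the C1q result was not tested.

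**Figure D2:**
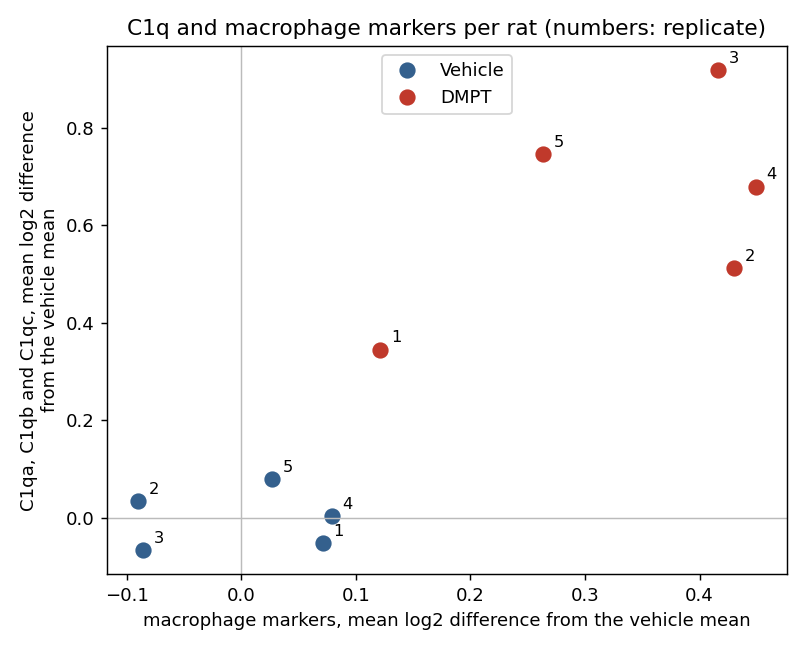
Mean log2 difference from the vehicle mean of 18 macrophage markers (horizontal axis) and of C1qa, C1qb and C1qc (vertical axis), 1 point per rat, numbered by replicate, blue for vehicle and red for DMPT. All 5 DMPT rats lie above all 5 vehicle rats on both axes.

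Other leukocyte lists were mixed, and their difference from the macrophage list was not tested. Of 10 pan-leukocyte markers, 7 had differences above 0, 0 were called higher (1 at an unadjusted p under 0.05 by limma) and Cd37, a tetraspanin gene of B cells, was called lower at -0.46 ± 0.12. Of 9 genes of dendritic cells and class II presentation, 0 were called higher (1 at an unadjusted p) and 3 lower: the invariant chain gene Cd74 fell by 0.46 ± 0.081, RT1-Db1 by 0.43 ± 0.12 and RT1-Da by 0.45 ± 0.12. The calls of Cd37, RT1-Db1 and RT1-Da were each lost in 7 or 8 of the 10 omissions, and the count of 3 became 1 without any of DMPT replicates 1, 2, 3 or 5 or vehicle replicates 1 or 5, and also with array weights or the RNA quality covariate. Of 6 neutrophil markers, 4 had differences above 0, with a median of 0.23; the protease gene Mmp8 was called higher, at 0.56 ± 0.16, a call lost in 7 of the 10 omissions, and all 6 were dimmer than the median probe set. Of 8 lymphocyte genes and 6 mast cell genes, 0 were called, and 0 passed at an unadjusted p under 0.05 by limma.

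The protease genes that act with C1q were not called. C1s read 8.24, 7.44, 7.37, 6.97 and 7.40 with vehicle and 7.72, 6.39, 6.92, 7.03 and 7.05 after DMPT. The groups overlapped, and replicate 1 of each group was its highest. The difference was -0.46 ± 0.25, with a 95% interval from -1.01 to 0.097 (limma adjusted p = 0.301), and leaving out replicate 1 of the DMPT or of the vehicle group gave -0.63 and -0.27. C1r, the protease that activates C1s, lay below all control rats in 4 of 5 treated rats and differed by -0.54 ± 0.17 (limma adjusted p = 0.063); it was called without vehicle replicate 4 (-0.66) and differed by -0.39 without vehicle replicate 2. The differences of both protease genes were thus below 0 where those of the C1q chains were above 0, and this contrast was not tested.

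C3, the protein on which all pathways converge, read 12.38, 10.14, 12.44, 12.74 and 12.72 with vehicle and 11.60, 11.49, 12.16, 12.18 and 10.99 after DMPT. All 5 treated rats lay below the 4 control rats other than vehicle replicate 2, which was the lowest of all 10. With all arrays the difference was -0.40 ± 0.45, with a 95% interval from -1.39 to 0.59 (limma adjusted p = 0.659). Without vehicle replicate 2 it was -0.88 and was called (adjusted p = 0.0293); in the other 9 omissions it ran from -0.52 to -0.22 and was not called. The result for C3 therefore depends on that 1 array.

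Cfi, which encodes the protease that inactivates C3b, read 12.42, 12.26, 11.80, 11.90 and 12.48 with vehicle and 12.09, 12.33, 12.30, 12.25 and 11.88 after DMPT. The treated values lay inside the control range. The group means were 12.17 and 12.17, and the 95% interval of the difference ran from -0.33 to 0.33, which leaves room for changes of up to about that size in either direction.

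The membrane regulators were not called. Cd55 had 2 probe sets. The brighter read 7.62, 8.45, 8.19, 7.58 and 8.40 with vehicle and 7.21, 7.75, 7.39, 7.22 and 7.71 after DMPT, with 3 of 5 treated rats below all control rats. Its difference was -0.59 ± 0.20 (95% interval -1.02 to -0.16, limma adjusted p = 0.078). It was called without vehicle replicate 1 (adjusted p = 0.0497) or vehicle replicate 4 (adjusted p = 0.045). The other Cd55 probe set read 7.81, 7.92, 6.30, 6.12 and 7.32 with vehicle and 6.63, 7.02, 6.37, 7.66 and 7.05 after DMPT. Its groups overlapped throughout and it differed by -0.15 ± 0.37 (adjusted p = 0.861), so that the 2 probe sets of Cd55 did not give the same size. The name of the brighter one marks it as reading several transcripts of the gene.

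Cd59b read 12.65, 13.06, 12.45, 12.82 and 12.88 with vehicle and 12.99, 13.02, 13.02, 12.90 and 12.73 after DMPT. The highest value of all was that of vehicle replicate 2, and the treated values lay within the control range. The difference was 0.16 ± 0.12, with a 95% interval from -0.10 to 0.42 (limma adjusted p = 0.467).

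**Figure D3:**
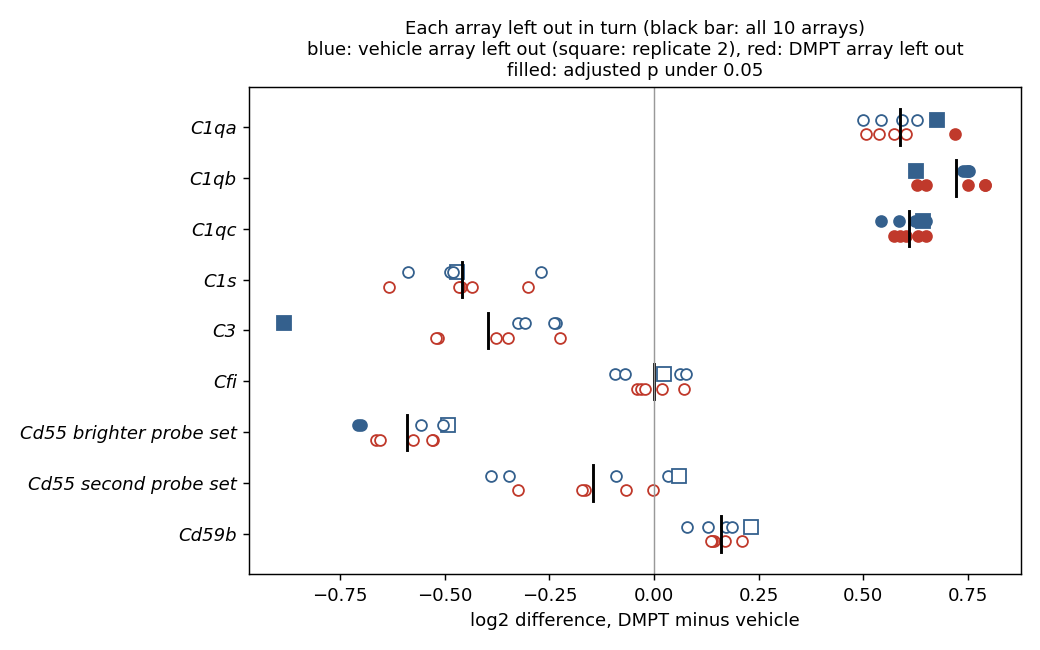
Log2 difference, DMPT minus vehicle (horizontal axis), of each complement probe set with all 10 arrays (black bar) and with each array left out in turn (blue, a vehicle array; red, a DMPT array; square, vehicle replicate 2; filled, adjusted p under 0.05). C1qb and C1qc stay filled throughout, and C3 is filled at -0.88 without vehicle replicate 2 only.

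Some markers of other cell types also differed in the same arrays. Of 8 ciliated cell markers 7 were called lower and 0 higher (8 and 0 at an unadjusted p under 0.05 by limma), with a median of -1.30; the axonemal dynein genes Dnah1 and Dnah2 differed by -1.77 ± 0.33 and -1.79 ± 0.39 and the tektin gene Tekt2, whose call was lost in 4 omissions, by -1.40 ± 0.34. Of 15 secretory and gland markers 6 were called lower and 0 higher (7 and 1 at an unadjusted p). Among the 6 were Azgp1 and Gp2, with differences of -2.36 ± 0.19 and -3.15 ± 0.37. The lysozyme gene Lyz2, which was not in the macrophage list, was also among them, at -0.38 ± 0.11 (limma adjusted p = 0.0495). The 1 that was higher at an unadjusted p was the mucin gene Muc5ac, at 1.29 ± 0.42 (limma adjusted p = 0.0711). Of the 15 differences, 4 were above 0 and 11 below. The per-rat mean of the gland markers was -1.02 to -0.19 in treated rats and -0.26 to 0.33 in control rats. Olfactory markers were called lower in 4 of 9 (Gap43, Cyp2g1, Cyp2a3 and Sec14l3) and higher in 1 of 9 (Adcy3). The remaining ones, Omp, Cnga2, Gnal and Ano2, were not called. Of 10 stromal markers, 0 were called (1 higher at an unadjusted p under 0.05 by limma). The part of these cell types in the values of C1s, C1r, C3, Cfi and the membrane regulators was not tested.

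Set side by side within rats, the groups of genes differed in position. The mean of C1s, C3 and Cfi against the vehicle mean was -0.60 to -0.09 in treated rats and -0.63 to 0.43 in control rats. The mean of Cd55 and Cd59b was -0.35 to -0.025 in treated rats and -0.28 to 0.35 in control rats. The C1q means did not overlap between groups. Those of C1s, C3 and Cfi overlapped through vehicle replicate 2 alone, at -0.63, the array whose C3 value was far below the other controls. The other 4 control rats read -0.045 to 0.43, above all 5 treated rats, of which the nearest read -0.09. This narrow gap is seen only with that array set aside. C1s stood here in place of Cfb, which had been planned but had no probe set of its own. The Cd55 and Cd59b means overlapped with and without that array. The difference between these groups of genes was not tested. Groups that did not overlap were seen in 2 of the 8 complement genes, both higher, and in 13.9% of all genes, 7.58% higher and 6.29% lower.

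The rest of the pathway was read from lists by role, with 32 genes measured beside the 8. Of these, 2 were called higher and 1 lower (5 and 6 at an unadjusted p under 0.05 by limma), and the median difference was 0.0064 against -0.0052 over all genes. Most were dim: 25 of the 32 read less than the median probe set. Among initiators, the ficolin gene Fcna, a lectin that starts the lectin pathway and is made by macrophages, rose by 0.49 ± 0.12 (limma adjusted p = 0.0208). Its treated rats lay above all control rats, at means of 6.67 and 6.18, and its call was lost without DMPT replicates 2 or 3. Among receptors, Cd93, a membrane protein of endothelium and myeloid cells that was once thought to bind C1q, rose by 1.24 ± 0.26 (adjusted p = 0.00999), and its call held in all 10 omissions. Among soluble regulators C4bpb, the beta chain of the C4b-binding protein, fell by 0.62 ± 0.18 (adjusted p = 0.0423), from a dim mean of 6.50, and lost the call in 7 of the 10 omissions.

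No other pathway gene was called, and the values of some follow by role. Cfd, encoding factor D, the protease that cuts factor B, differed by 0.55 ± 0.16 (limma adjusted p = 0.0516). It was called without DMPT replicate 1 (0.63) or vehicle replicate 1 (0.64). Some other alternatives also called it, among them centring arrays on their median (0.59) and array weights (0.51). Cd46, a membrane cofactor for factor I, differed by -0.61 ± 0.23 (adjusted p = 0.121), and by -0.77 without vehicle replicate 2, where it was called. Cr1l, another gene in the list of membrane regulators, had a mean of 13.00 in both groups (adjusted p = 0.987). C8g, a chain of the membrane attack complex, differed by -0.37 ± 0.14 (adjusted p = 0.127). Clu, encoding clusterin, which binds terminal complexes, differed by 0.91 ± 0.35 (adjusted p = 0.127), and C3ar1, the receptor of the C3a fragment, by -0.017 ± 0.13. Of the 6 terminal genes measured, 0 were called, and C8g and C9 made up the 2 that were lower at an unadjusted p under 0.05 by limma.

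**Figure D4:**
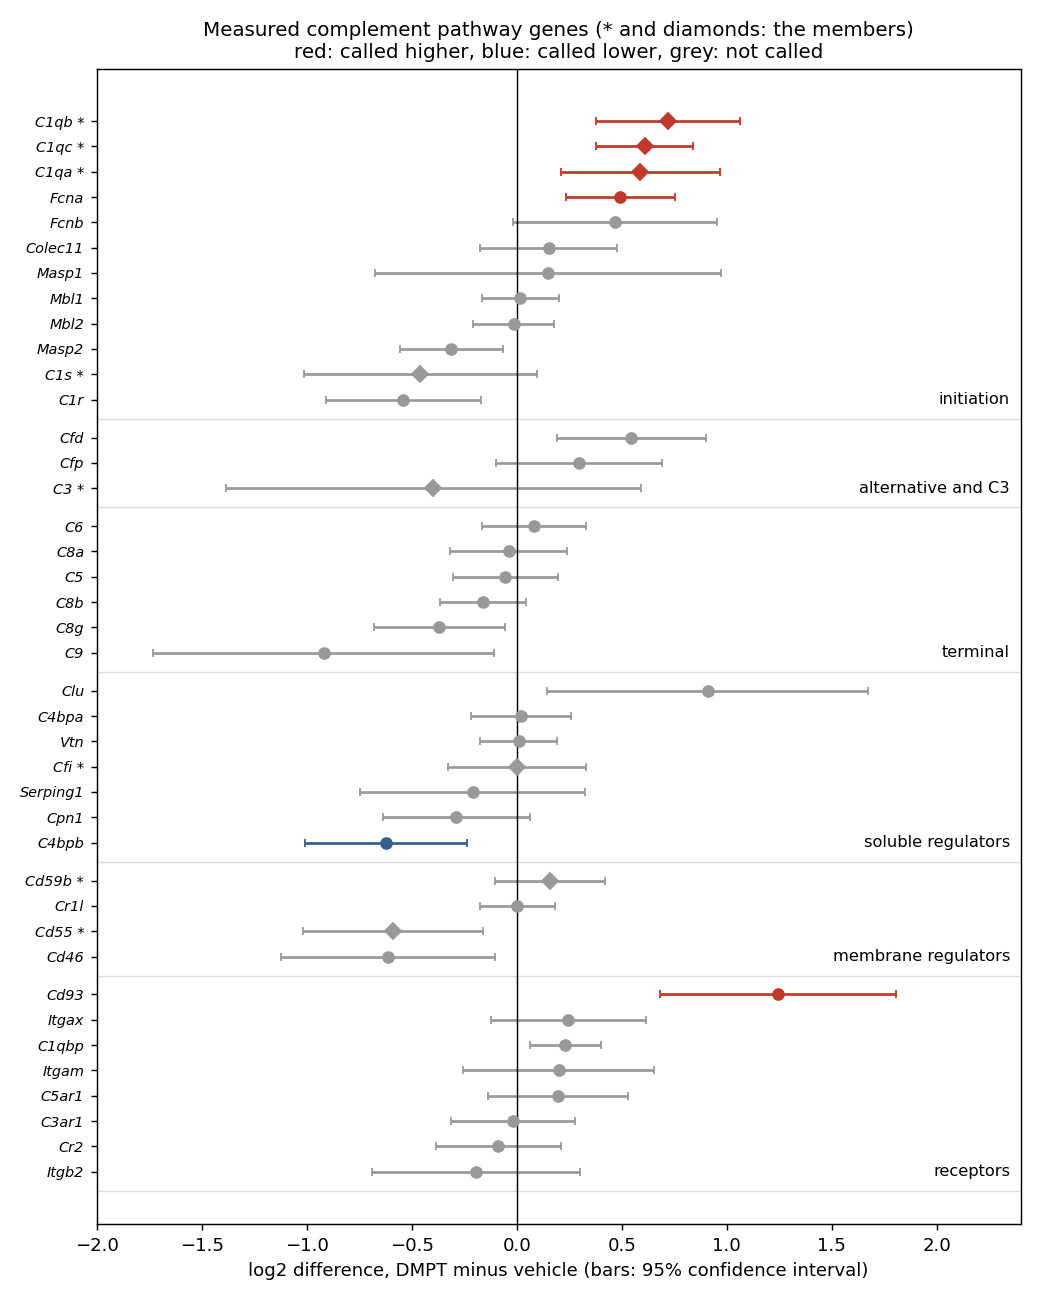
Log2 difference, DMPT minus vehicle (horizontal axis), with its 95% interval for the 40 measured complement genes, grouped by role; diamonds and asterisks mark the 8 genes described first, red is called higher, blue called lower and grey not called. The C1q chains lie at the top of the initiators and C1r and C1s at the bottom.

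Several endothelial markers were higher in the same arrays as Cd93. Of 9 measured, 5 were called higher, 0 lower and 4 not called (7 and 0 at an unadjusted p under 0.05 by limma): the adhesion genes Pecam1 and Esam, the growth factor receptor genes Kdr and Tie1 and the sialomucin gene Emcn. Kdr rose by 2.06 ± 0.38 and Emcn by 1.72 ± 0.44. Their mean per rat was 0.54 to 1.81 in treated rats, 4 of 5 above all control rats, which read -0.43 to 0.71, and 8 of the 9 were dimmer than the median probe set. The count was 3 without DMPT replicates 1, 3 or 4 or vehicle replicates 4 or 5, where Tie1 and Emcn lost the call, and also 3 with the RNA quality covariate. The part of endothelial RNA in the Cd93 result was not tested.

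Genes of the signals that are known to induce C3 and factor B, and genes that respond to such signals, were read as well. Of 21 interferon response genes, Ifit2 rose by 0.75 ± 0.11 and Gbp2 by 1.58 ± 0.44, and Ifi27 fell by 0.42 ± 0.085; the median was -0.017, and Gbp2 lost its call in 7 of the 10 omissions. Of 20 genes in a list of acute phase and related genes, 5 were called lower and 1 higher. The list is wider than acute phase proteins, as it also holds Pigr, Il1r1 and the cytokine gene Tnf. Of the 5, Pigr is also among the 6 gland markers called lower above, and the part of gland cells in these values was not tested. The ceruloplasmin gene Cp fell by 2.14 ± 0.24, Pigr, the polymeric immunoglobulin receptor gene, fell by 1.79 ± 0.15, the lipopolysaccharide-binding protein gene Lbp by 0.81 ± 0.20, the haptoglobin gene Hp by 0.61 ± 0.17 and the interleukin 1 receptor gene Il1r1 by 0.54 ± 0.13. Tnf rose by 0.59 ± 0.17. On the mean of the 20 genes of this list, all 5 treated rats (-0.40 to -0.16) lay below all control rats (-0.079 to 0.11). The fall was not shared by the whole list. The mean of the 20 differences was -0.29 and their median -0.072, with 9 above 0 and 11 below. Hp and Tnf lost the call in 7 and 8 of the 10 omissions, Lbp in 3 and Il1r1 in 2, and the count of lower genes was 3 without DMPT replicates 3 or 4 or vehicle replicates 1 or 5, and also with the RNA quality covariate.

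The genes most like each complement gene were taken as those with the highest Pearson correlation, over the 10 arrays, of values minus their group mean, among about 9015 genes at or above the median level. For C1qa it was Lsm7 (r = 0.969), followed by Tubgcp4 (0.942) and by Pld4, a phospholipase D family gene of myeloid cells (0.931). These 3 genes differed by -0.099, -0.21 and -0.098, and none was called. For C1qb it was Zfp933 (0.921), followed by Zfp148 (0.884) and Rogdi (0.870). For C1qc it was the mitotic kinase gene Haspin (0.924), followed by Gpam (0.893) and Atg2b (0.892). Haspin was itself called higher by 0.67 ± 0.17, though not in 4 of the 10 omissions. The other genes named here for C1qb and C1qc were not called. C3 had the highest of these values with Nectin2, an adhesion molecule gene, at 0.986, and vehicle replicate 2 was far below the other control arrays in both. Nectin2 differed by -0.14 and was not called; without that array it differed by -0.31 and was called lower (limma adjusted p = 0.0327). For C1s it was Elk4 (0.896), for Cfi Taf9b (0.922), for Cd55 Lpin1 (0.933) and for Cd59b Trim37 (0.973). Each is among the 3 largest of all these correlations for its complement gene over 10 arrays and is given as a description.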

How the data were processed

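Arrays of 10 rats, 5 per group, were analysed. The authors deposited log2 values, summarised by RMA according to the submitters' processing notes; RMA corrects background, equalises array distributions, which can hide global shifts, and summarises probes. Its version is not named in the labels. Of 31099 probe sets, 57 controls were set aside. Platform symbols were used; 20826 probe sets had 1 symbol, 436 several and 9780 none; probe sets with several or no symbols were tested but not named. Symbols were looked up in RefSeq (GRCr8) by Entrez identifier, which changed 0. Groups came from the sample titles; limma 3.58.1, run under R 4.3.3, tested the contrast (lmFit, eBayes, no covariate or filter); the fit was tested on simulated data. The series' design text names ORIOGEN, which was not run. The number of arrays limits the precision, and the labels say that rats shared cages without saying which, so arrays were treated as independent.

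The genes and lists were chosen with earlier results of these data known. By rule, the text names the 8 measured genes and other pathway genes that were called or had the smallest p of their list. It also names genes among the 3 of smallest p in each cell type or response list. The rule covered the 3 genes most like each member, of which the text names all 3 for C1qa, C1qb and C1qc and the first for the others. C1r, C3ar1, Clu, Csf1r, Adgre1, Aif1, Mrc1, Fcgr2b, Cd163, Lbp, Hp, Tnf, Tie1 and Emcn were named after their values were seen. So were Muc5ac, Lyz2, Cr1l, Cyp2g1, Adcy3, Omp, Cnga2, Gnal and Ano2. Alternatives were single-array omissions, a replicate block, array weights, a filter on dim probe sets, median centring, trended eBayes, an RNA quality covariate and the mean of a gene's probe sets.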

Additional observations from a re-analysis of the deposited data

Results flagged for a closer look

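Each group of 5 arrays was checked for 1 array far from the other 4 (Dixon's test at 95%). This was done for every gene or probe set the text gives values for, except Tubgcp4, Zfp148, Rogdi, Gpam, Atg2b, Muc5ac, Lyz2 and Cr1l. Of 134 groups, 7 had such an array, and chance alone gives about 1 in 20. For C1qb, vehicle replicate 2 read 8.03 and the other control arrays 8.47 to 8.53, and the C1qb difference was 0.72 with it and 0.63 without it. For C3, vehicle replicate 2 read 10.14 and the others 12.38 to 12.74, and the call of C3 turned on that array. For Nectin2, the gene most like C3, the same array read 9.88 and the others 10.68 to 10.79. For Aif1, vehicle replicate 3 read 9.43 and the others 9.84 to 9.93. For the keratin gene Krt5, vehicle replicate 1 read 12.86 and the others 12.45 to 12.55. For Elk4, DMPT replicate 1 read 11.81 and the other treated arrays 11.29 to 11.42. For the dimmest of the probe sets shared by Cfb and C2, DMPT replicate 1 read 5.91 and the others 5.27 to 5.43.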

How the results depend on the processing

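The calls of C1qc held under all alternatives run, and those of C1qb under all but the RNA quality covariate. Values minus their group mean correlated over 0.1 in 2 of 5 pairs of same-numbered arrays, with a range from -0.067 to 0.23. Pairs with different numbers were not compared, so whether replicate numbers pair the arrays was not settled. With a replicate block 1 complement gene of the 8 was called lower (Cd55, -0.59, adjusted p = 0.0117). With that block the counts of called macrophage, class II and endothelial markers were 3, 1 and 8. Over the 10 single-array omissions the 8 genes gave 2 to 3 higher and 0 to 1 lower calls, the lower one without vehicle replicates 1, 2 or 4. The other pathway genes gave 1 to 4 higher and 0 to 2 lower, with a median of -0.013 to 0.026; array weights gave 4 and 2, median centring 4 and 0, and the filter on dim probe sets 0 lower and a median of 0.076. Over all probe sets 1137 to 2130 were called higher and 1022 to 1886 lower in the omissions, the fewest without DMPT replicate 3, and 951 lower with the RNA covariate. Signs turned only for genes not called: with array weights Cfi 0.077, the second Cd55 probe set 0.089, Adgre1 0.054, Elk4 -0.047, Trim37 0.0023 and Pld4 0.077; with median centring Cfi 0.039 and C3ar1 0.023; with the RNA covariate Cfi 0.13, the second Cd55 probe set 0.029, Adgre1 0.098 and Elk4 -0.057. In the omissions Cfi ran from -0.094 to 0.076, the second Cd55 probe set from -0.39 to 0.060, C3ar1 from -0.073 to 0.11, Adgre1 from -0.13 to 0.063, Aif1 from -0.032 to 0.16, Zfp933 from -0.025 to 0.095 and Elk4 from -0.078 to 0.070. The cause was not tested. C4bpb and Fcna were among the dim genes, at 21.6 and 24.5% of the ranked probe set means.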

Other observations

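The 4 probe sets annotated to both Cfb and C2 were lower after DMPT or not called, and which of these 2 genes they measure cannot be told from the annotation. The brightest read 11.43, 12.26, 10.90, 11.35 and 11.72 in vehicle replicates 1 to 5 and 10.43, 9.71, 8.60, 9.79 and 9.20 in DMPT replicates 1 to 5. Every treated rat lay below every control rat, and the difference was -1.99 ± 0.32 (limma adjusted p = 0.00256), or 3.96-fold lower. It was called in all 10 single-array omissions, between -2.21 and -1.75, and was larger in size than the difference of any of the 8 measured complement genes. Another differed by -1.09 ± 0.28 (adjusted p = 0.0293) and a further one by -0.70 ± 0.18 (adjusted p = 0.0263), both without overlap between the groups. Their calls were lost in 3 and 4 of the 10 omissions. With the RNA quality covariate these latter probe sets were not called, at adjusted p = 0.133 and 0.0794. The dimmest differed by -0.21 ± 0.13 (adjusted p = 0.389).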
